A study of Mus musculus with 19 samples.

Results

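Livers of 9 mice in which light could excite AgRP neurons were compared after 4 h and after 2 h of light, as 9 of the 19 libraries of the series. AgRP neurons are hypothalamic cells that make agouti-related peptide and drive hunger. The 9 libraries were chosen by their labels alone, namely 4 h tg mice (5 libraries) against 2 h tg mice (4 libraries, replicates 1, 2, 3 and 5), and the 14319 of 14576 deposited genes with a value in all 9 tg libraries were used. The labels number the libraries of a group and mention no pooling of animals. Labels give the tg mice as AgRP-IRES-Cre tg/wt with ROSA26 ChR2 fl/wt, so that a Cre driver in the Agrp gene switches on the light-gated channel channelrhodopsin-2 from the ROSA26 locus. The wt mice were AgRP-IRES-Cre wt/wt with ROSA26 ChR2 fl/wt, carried the same floxed channel without the driver, and gave 5 libraries at each duration. All mice received blue light of 473 nm in 10 ms pulses at 20 Hz, with 3 s on and 1 s off, and had no food during the light. Light began at zeitgeber time (ZT) 5.5 for 2 h and at ZT 3.5 for 4 h, and all livers were taken at ZT 7.5. Light duration, the start of the light and the time without food therefore changed together and cannot be told apart, while the time of tissue collection was the same. No tg mice without light were part of the design, and age and sex are not given in the sources used here.

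During fasting the liver breaks down amino acids, makes glucose, and adjusts growth signalling through mTORC1, a kinase complex that sits on lysosomes and reads amino acid supply. Adrenal steroids, sympathetic nerves, insulin and the circadian clock all reach hepatocytes on such a time scale. Transcripts of feeding-responsive and clock genes in liver are known to follow meal timing as well as light.

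Total counts of the 9 tg libraries ran from 21474255 to 28419872 and did not differ detectably between durations (two-sided exact permutation test, p = 0.683). The hepatocyte markers were high in every library, with a sum over 8 markers of 72700 to 104000 CPM (counts scaled to the library size, as CPM throughout) at 2 h and 95800 to 111000 CPM at 4 h. Agrp was not analysed here, and the labels of genotype were taken as given. Tg 4 h replicate 3 stood apart from the other 4 h libraries. On the first principal component of the tg libraries (17.8% of the variance) it lay at 37.2, against a range of -29.9 to 11.1 for the other 8. Cdkn1a, a cell cycle inhibitor, stood at 8.13 CPM in it against 47.2 to 78.8 CPM in the other 4 h livers, and 0.52 to 3.41 CPM in the wt livers. Arrdc3, an alpha-arrestin, stood at 137 CPM in it against 11.5 to 34.3 CPM in the other 4 h livers and 68.8 to 243 CPM in wt. With all libraries edgeR called neither Cdkn1a (log2 change 1.99 ± 0.52, adjusted p = 0.0866) nor Arrdc3 (adjusted p = 0.276) between the durations. Cdkn1a was called without tg 4 h replicate 3 (log2 change 2.26, adjusted p = 0.0151) and by DESeq2 (adjusted p = 0.0229). Tg 2 h replicate 1 also differed from the rest. Its chi-square over its degrees of freedom was 78.4 to 147 in pairs with the other tg libraries. For tg 4 h replicate 3 that value was 61.6 to 146. The mitochondrial share of counts in tg 2 h replicate 1 was 7.75%, against 10.21% to 12.93% in the other tg livers.

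Between 4 h and 2 h of light, 114 of 12493 fitted genes (0.913%) changed in tg livers at an adjusted p under 0.05 in edgeR's quasi-likelihood test. Of these, 33 (0.264%) rose and 81 (0.648%) fell. The strongest falls by p-value were Lgr5, a receptor that amplifies Wnt signals, and Slc36a1, a lysosomal amino acid transporter, and the strongest rises were Osbpl11, a lipid-binding protein, and Slc25a34, a mitochondrial carrier. Changes were moderate in size. The median log2 change was 0.74 among the risen genes and -0.73 among the fallen ones, and 7 and 19 of them passed 2-fold. The 2 h and 4 h libraries did not overlap for 32 of the 33 risen and 75 of the 81 fallen genes, against 2.32% of all fitted genes with all 4 h libraries higher and 2.51% with all lower. Choosing the genes by their p-values in these libraries favours such counts. Scaling by library totals gave 16 rises and 179 falls, so the share of falls depended on the scaling.

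How many genes were called depended strongly on single livers. Without tg 2 h replicate 3, 20 genes were called, without tg 4 h replicate 5, 25, and without tg 4 h replicate 1, 35. Leaving out tg 4 h replicate 4 gave 41 calls and leaving out tg 2 h replicate 5 gave 55. Without tg 2 h replicate 1, 95 genes were called, 69 of them among the 114. The fit without tg 2 h replicate 2 called 79 genes (58 shared) and that without tg 4 h replicate 2 called 110 (85 shared). Without tg 4 h replicate 3, which stood apart above, 134 genes were called, 51 of them higher, and 93 of the 114 were among them. Without wt 4 h replicate 1, 164 genes were called, 53 of them higher. The calls of 19 genes were kept in all 9 fits that leave out a tg library, 5 that rose and 14 that fell, with adjusted p-values of at most 0.0467 in those fits.

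**Figure D1:**
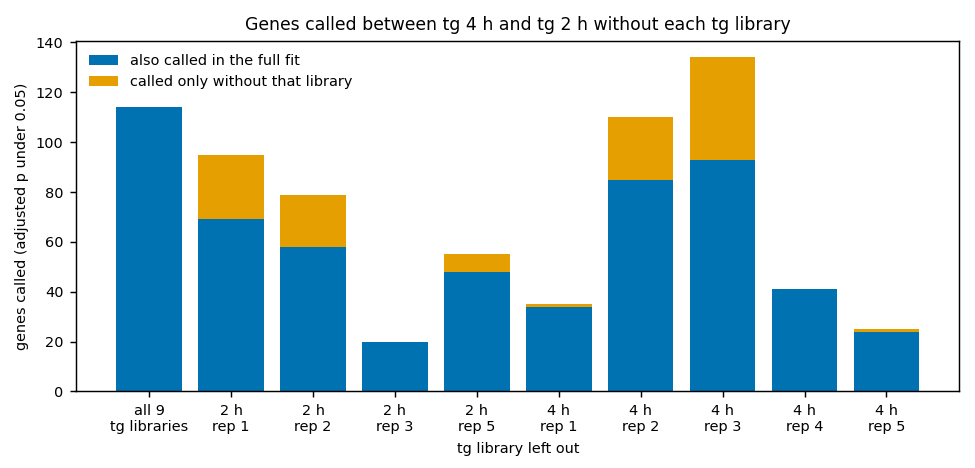
Number of genes called between tg 4 h and tg 2 h (adjusted p under 0.05) with all 9 tg libraries and without each of them, with calls shared with the fit of all libraries in blue and further calls in orange. The count is lowest at 20 without tg 2 h replicate 3 and highest at 134 without tg 4 h replicate 3.

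The 19 genes were set against the range of the wt livers. All 14 that fell had a 2 h mean within the range of the 10 wt libraries, and 13 of them had a 4 h mean below it, Nr3c2 being the exception. Over all 81 fallen genes, 70 (86.4%) went from inside the wt range to below it, against 7.65% of all fitted genes. Among the 33 risen genes, 17 (51.5%) went from inside the wt range to above it, 4 (12.1%) went from below it to inside, and 3 (9.09%) went from below it to above, against 7.52%, 1.49% and 0.024% of all fitted genes. Another 6 (18.2%) had means above the wt range at both durations, against 4.11%. The direction was part of the choice of these genes, so the counts are a description.

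**Figure D2:**
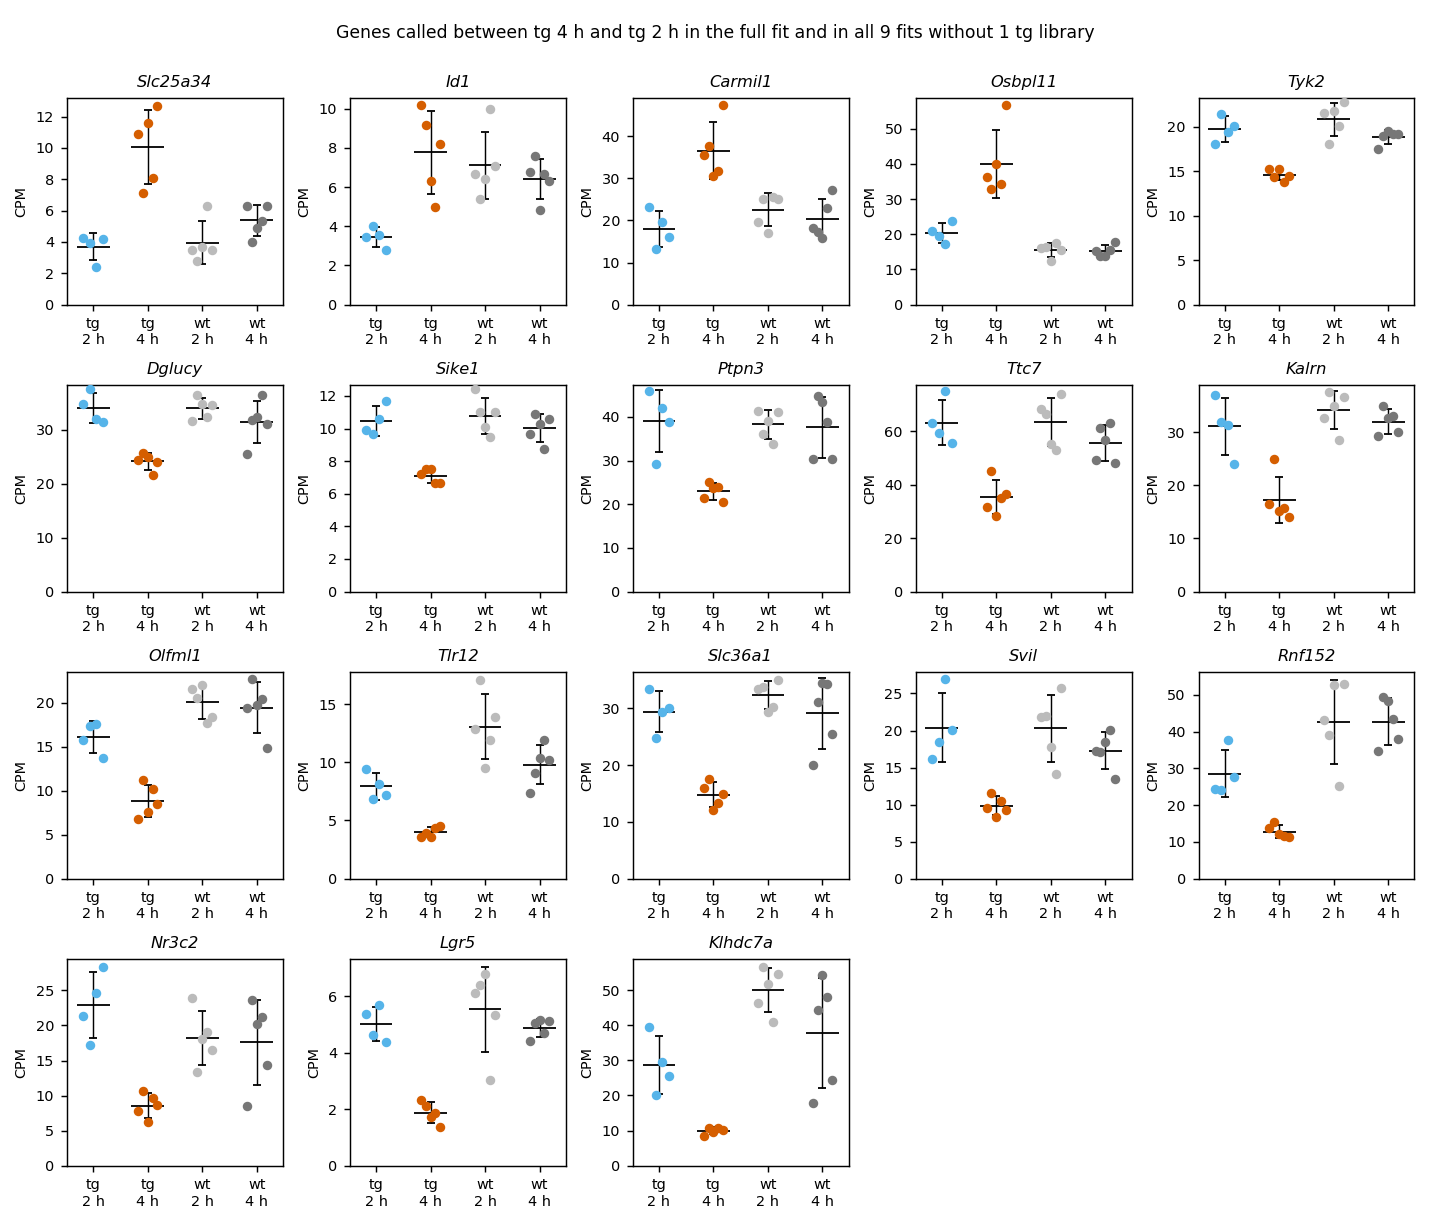
CPM per library (points) with the group mean and SD (black) for 18 of the 19 genes called in the fit of all libraries and in all 9 fits without a tg library, in tg 2 h (4 livers, blue), tg 4 h (5 livers, orange) and wt (5 livers each, grey), each axis from 0. Of these 18, 17 show no overlap between tg 2 h and tg 4 h, a count that the choice of genes by p-value favours. Over all fitted genes, 2.32% had all 4 h libraries higher and 2.51% had all lower. In Kalrn a single 4 h liver at 24.9 CPM reaches above the lowest 2 h liver at 24.0 CPM.

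Called genes are grouped here by their known roles, a grouping made after the values were seen that tests no role. Receptors of hormones and growth signals were among the largest falls. Lgr5 (ENSMUSG00000020140, GRCm38 chr10:115450311-115587780), which marks hepatocytes around the central vein, stood at 5.38, 4.63, 5.67 and 4.38 CPM in the 2 h livers and at 2.31, 2.11, 1.74, 1.85 and 1.36 CPM in the 4 h livers. Every 4 h liver was below every 2 h liver, and Lgr5 fell by 1.43 ± 0.19 (SE) on the log2 scale (adjusted p = 0.00482). The wt livers ranged from 3.02 to 6.79 CPM. In a bulk sample, fewer cells of a type and less RNA per cell cannot be told apart. Lgr5 was the single called gene among 25 measured Wnt targets and pericentral genes, whose median log2 change was -0.02, with Glul, the pericentral glutamine synthetase, at -0.03 ± 0.16 and Axin2, a Wnt feedback gene, at 0.58 ± 0.26 (adjusted p = 0.374).

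Nr3c2 (ENSMUSG00000031618, chr8:76899442-77245012), the mineralocorticoid receptor, which binds aldosterone and also corticosterone, stood at 21.4, 17.2, 24.7 and 28.4 CPM at 2 h and at 7.76, 10.7, 6.20, 9.63 and 8.60 CPM at 4 h. The 4 h values lay below all 2 h values, and Nr3c2 fell by 1.42 ± 0.24 on the log2 scale (adjusted p = 0.0114). In a list of 13 measured genes, made of receptors of steroids and other hormones with some steroid enzymes, Nr3c2 was the one called. The median log2 change of that list was -0.04. Tnfrsf19, a receptor of the TNF receptor family, ran from 5 to 10.1 CPM at 2 h and from 2.36 to 3.78 CPM at 4 h, and fell by 1.27 ± 0.24 (adjusted p = 0.0186). That call was lost without tg 2 h replicate 3, tg 4 h replicate 1 or tg 4 h replicate 5, at adjusted p up to 0.0907. Ihh, the ligand Indian hedgehog, ran from 1.44 to 1.91 CPM at 2 h and from 0.378 to 0.786 CPM at 4 h, a fall of 1.68 ± 0.40 (adjusted p = 0.0442). The Ihh call was kept only without tg 4 h replicate 2, and the other 8 fits gave adjusted p up to 0.113. It was also lost with limma-voom. Blocks for the replicate number in the sample names, or for ranges of the last number in the sample titles, lost it as well.

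Slc36a1 and Rnf152, with products on the lysosome that bear on amino acid sensing, fell, as did Eef2k, a kinase of translation. Slc36a1 (ENSMUSG00000020261, chr11:55204350-55236330), which carries amino acids out of lysosomes with protons and promotes mTORC1 activity, stood at 33.4, 24.7, 29.4 and 30.1 CPM at 2 h and at 16.0, 17.6, 12.1, 13.4 and 14.9 CPM at 4 h. It was lower in all 5 of the 4 h livers than in any 2 h liver, and fell by 0.99 ± 0.14 (adjusted p = 0.00482). Its promoter is shown because Slc36a1 had, with Lgr5, the smallest adjusted p-value of all genes (RefSeq, GRCm38.p6, plus strand, chr11:55204090-55204389, 250 bases before to 50 after the start). Capitals mark AGAACA, a half-site of a glucocorticoid response element, at 70 bases before the start, and E-boxes (CACGTG) at 31 and at 3. The E-box at 31 runs into TGACCT, the reverse complement of the ROR and REV-ERB half-site, at 27.
Slc36a1: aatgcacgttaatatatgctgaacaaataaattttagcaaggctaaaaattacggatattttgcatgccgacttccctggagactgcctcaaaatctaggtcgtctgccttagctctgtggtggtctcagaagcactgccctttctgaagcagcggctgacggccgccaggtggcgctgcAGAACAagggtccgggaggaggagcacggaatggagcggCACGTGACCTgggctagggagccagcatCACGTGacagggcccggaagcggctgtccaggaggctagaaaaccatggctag

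Rnf152 (ENSMUSG00000047496, chr1:105276914-105356710), a lysosomal ubiquitin ligase that restrains mTORC1 through the RagA GTPase, stood at 24.5, 24.2, 37.8 and 27.6 CPM at 2 h and at 13.7, 15.3, 12.2, 11.5 and 11.4 CPM at 4 h. No 4 h value reached the 2 h values, and Rnf152 fell by 1.16 ± 0.18 (adjusted p = 0.00692). It was the single call among 18 mTORC1 regulators, whose median log2 change was 0.04 (-0.035 when scaled by library totals), with Ddit4 at 0.46 and Sesn2 at 0.42 not called. Slc36a1 and Rnf152 act on mTORC1 in opposite directions, as background, and both transcripts fell. Eef2k, the kinase that slows translation elongation, ran from 8.4 to 14.4 CPM at 2 h and from 3.98 to 6.39 CPM at 4 h, and fell by 1.16 ± 0.21 (adjusted p = 0.0122, or 0.0707 without tg 2 h replicate 3).

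Of the 40 measured core autophagy genes and the 25 genes of lysosomes and TFEB none was called by edgeR, with 5 and 2 at an unadjusted p under 0.05, a level that 12.1% of all fitted genes reached. Their median log2 changes were 0.05 and 0.04, beside 0.008 over all fitted genes, and -0.026 and -0.049 when scaled by library totals. Ulk1, the kinase that starts autophagy, changed by 0.05 ± 0.10 and Tfeb, a regulator of lysosomal genes, by 0.10 ± 0.14. Outside those lists, 4 called genes with a role in autophagy were picked out after their values were seen. Retreg1, a receptor for autophagy of the endoplasmic reticulum, stood at 146 ± 32.3 CPM (SD) at 2 h, with 174 CPM as the highest liver, and at 313, 249, 250.0, 282 and 274 CPM at 4 h, with no overlap, and rose by 0.90 ± 0.19 (adjusted p = 0.0256). Rubcn, an inhibitor of autophagosome maturation, ran from 11.8 to 14.6 CPM at 2 h and from 7.75 to 11.8 CPM at 4 h, ranges that meet, and fell by 0.49 ± 0.11 (adjusted p = 0.0384). Plekhm1, an adaptor for fusion with lysosomes, fell by 0.39 ± 0.08 (adjusted p = 0.0255) and Zfyve26, which takes part in re-forming lysosomes, by 0.57 ± 0.11 (adjusted p = 0.0225). None of these 4 calls was kept without tg 2 h replicate 3 or without tg 4 h replicate 5. Those of Retreg1, Rubcn and Plekhm1 were also lost without tg 2 h replicate 1 or tg 4 h replicate 1, those of Retreg1, Rubcn and Zfyve26 without tg 4 h replicate 4, those of Plekhm1 and Zfyve26 without tg 2 h replicate 5, and that of Rubcn without tg 2 h replicate 2 or tg 4 h replicate 2 (adjusted p up to 0.113 over the 4 genes). A fit to the tg libraries alone lost the calls of Rubcn, Plekhm1 and Zfyve26, and limma-voom that of Rubcn. The block for the replicate number lost those of Retreg1, Rubcn and Plekhm1.

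Falls among genes with a role in innate immune signalling included Tlr12, Tyk2, Sike1 and Ifnar1, of which the last was the smallest. Tlr12, a toll-like receptor that in mice recognises a parasite profilin, stood at 9.45, 6.88, 8.14 and 7.21 CPM at 2 h and at 3.58, 3.88, 3.59, 4.31 and 4.53 CPM at 4 h. All 4 h livers were below all 2 h livers and below the lowest wt liver (7.36 CPM), and Tlr12 fell by 0.99 ± 0.16 (adjusted p = 0.00796). Tyk2, a Janus kinase bound to the interferon receptor, stood at 18, 21.4, 19.4 and 20.1 CPM at 2 h and at 15.2, 14.3, 15.2, 13.8 and 14.5 CPM at 4 h, again without overlap, and fell by 0.43 ± 0.08 (adjusted p = 0.0146). Sike1, an inhibitor of a kinase that starts the interferon response, ran from 9.69 to 11.7 CPM at 2 h and from 6.63 to 7.52 CPM at 4 h, and fell by 0.56 ± 0.10 (adjusted p = 0.0114). Ifnar1, a subunit of the type I interferon receptor, ran from 28.6 to 32.7 CPM and from 23.4 to 25.4 CPM, and fell by 0.31 ± 0.07 (adjusted p = 0.0382), a call kept only without tg 2 h replicate 2 or tg 4 h replicate 3 (adjusted p up to 0.119 otherwise). A fit to the tg libraries alone lost it too, as did the blocks for the replicate number and for the title number. Among 21 measured interferon-stimulated genes Ifnar1 was the one called, and the list's median log2 change was 0.02. All 12 Kupffer cell markers had a log2 change below 0, with a median of -0.29 and none called or at 0 in any library, and their sum ran from 227 to 424 CPM at 2 h and from 184 to 410 CPM at 4 h. Without 1 tg library that median ran from -0.48 to -0.06. Of 8 fitted T and NK cell markers 1 was above 0, with a median log2 change of -0.33 and none called. Their sum ran from 4.29 to 6.9 CPM at 2 h and from 2.9 to 6.47 CPM at 4 h, and Cd3e was at 0 in at least 1 library. The part of either marker list in these falls was not tested.

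Svil, Kalrn, Ptpn3 and Ttc7, whose products act at the cell cortex or membrane, had falls kept in all 9 fits. Svil, a membrane protein that binds actin and myosin, stood at 16.1, 18.4, 27.0 and 20.1 CPM at 2 h and at 9.58, 11.6, 8.36, 10.5 and 9.30 CPM at 4 h. It did not overlap between durations and fell by 1.05 ± 0.17 (adjusted p = 0.00692). Kalrn, an exchange factor for small GTPases, fell by 0.85 ± 0.14 (adjusted p = 0.00882), from 31.1 ± 5.34 CPM (SD, 2 h) to 17.2 ± 4.35 CPM (SD, 4 h), a call lost in a fit to the tg libraries alone. Ptpn3, a tyrosine phosphatase attached to the cortex, fell by 0.77 ± 0.13 from 39.0 ± 7.09 to 22.9 ± 1.91 CPM (adjusted p = 0.0105). Ttc7, a scaffold of a phosphatidylinositol kinase at the plasma membrane, fell by 0.84 ± 0.13 from 63.2 ± 8.44 to 35.3 ± 6.27 CPM (adjusted p = 0.00692). The remaining 3 falls kept throughout were Klhdc7a (1.53 ± 0.26 lower on the log2 scale), Olfml1 (0.87 ± 0.14 lower) and Dglucy, a mitochondrial D-glutamate cyclase (0.49 ± 0.09 lower). Klhdc7a had the largest fall of the 19, from 20.2 to 39.5 CPM at 2 h to 8.45 to 10.7 CPM at 4 h.

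Rises kept in all 9 fits included those of Slc25a34, Id1, Carmil1 and Osbpl11. Slc25a34 (ENSMUSG00000040740, chr4:141618824-141623821), a mitochondrial carrier whose cargo is not established, stood at 4.27, 3.91, 2.42 and 4.20 CPM at 2 h and at 10.9, 7.12, 11.6, 8.09 and 12.7 CPM at 4 h. All 4 h livers were above all 2 h livers, and Slc25a34 rose by 1.45 ± 0.23 (adjusted p = 0.00692). It was the single call among 34 SLC25 carriers, whose median log2 change was 0.05. Osbpl11 (ENSMUSG00000022807, chr16:33185071-33243312), a lipid-binding protein of the oxysterol-binding family, stood at 21, 19.4, 17.1 and 23.8 CPM at 2 h and at 36.4, 32.9, 39.9, 34.2 and 56.6 CPM at 4 h. Its 4 h livers lay above all 2 h livers, which in turn had a mean above the highest wt liver (17.9 CPM), and it rose by 0.98 ± 0.15 (adjusted p = 0.0065). The promoters of these rises, the called genes with the smallest p-values in that direction, are shown from RefSeq (GRCm38.p6, Slc25a34 on the minus strand at chr4:141623785-141624084 and Osbpl11 on the plus strand at chr16:33184821-33185120). Capitals mark TGACCT, the reverse complement of the ROR and REV-ERB half-site, at 119 bases before the start of Slc25a34. In Osbpl11 they mark a reverse TCF site (ATCAAAG) at 73 and GGCGCC, a BMP response element, at 64.
Slc25a34: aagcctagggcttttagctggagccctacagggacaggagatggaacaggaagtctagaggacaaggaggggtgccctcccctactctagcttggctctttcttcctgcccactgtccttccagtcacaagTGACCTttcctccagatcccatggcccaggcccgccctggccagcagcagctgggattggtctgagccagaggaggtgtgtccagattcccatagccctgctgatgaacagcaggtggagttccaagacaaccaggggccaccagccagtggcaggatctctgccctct
Osbpl11: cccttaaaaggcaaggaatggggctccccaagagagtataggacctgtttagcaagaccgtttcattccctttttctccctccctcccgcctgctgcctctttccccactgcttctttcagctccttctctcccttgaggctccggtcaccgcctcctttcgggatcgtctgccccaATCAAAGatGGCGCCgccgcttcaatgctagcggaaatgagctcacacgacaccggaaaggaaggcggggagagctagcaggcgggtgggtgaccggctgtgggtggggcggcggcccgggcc

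Carmil1, which binds the actin capping protein, ran from 13.2 to 23.1 CPM at 2 h and from 30.5 to 47.5 CPM at 4 h, and rose by 1.02 ± 0.19 (adjusted p = 0.0146). Besides the 5 rises kept in all 9 fits, no rise was kept in 8 of them. Aass, the enzyme that starts lysine breakdown and the most abundant called gene of the lists, stood at 356, 469, 349 and 455 CPM at 2 h and at 754, 614, 1110, 645 and 898 CPM at 4 h. The groups of Aass did not overlap, and it rose by 0.98 ± 0.20 (adjusted p = 0.0225), a call lost without tg 2 h replicate 1, tg 2 h replicate 3 or tg 4 h replicate 5 (adjusted p up to 0.0932).

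Around Aass, the urea cycle and amino acid breakdown list had 25 of its 26 measured members above 0, with a median log2 change of 0.26 against 0.008 over all genes, and 9 at an unadjusted p under 0.05 (12.1% of all genes). That median ran from 0.19 to 0.39 without 1 tg library, was 0.19 at the lowest under other scalings, and was 0.11 in wt. Other lists were as one-sided. All 40 cytosolic ribosomal protein genes and all 36 nuclear genes of oxidative phosphorylation were above 0, with medians of 0.115 and 0.11. In the fit of all libraries edgeR called Aass alone of the amino acid list. Sds, which turns serine into pyruvate, stood at 428, 583, 395 and 497 CPM at 2 h and at 879, 840.0, 1000, 675 and 905 CPM at 4 h, with a log2 change of 0.86 ± 0.22 that missed the threshold (adjusted p = 0.067). Sds was called by DESeq2 (adjusted p = 0.0076), by edgeR on the tg libraries alone (adjusted p = 0.0229) and without wt 2 h replicate 4 (adjusted p = 0.0308). Tdo2, an enzyme of tryptophan breakdown, had a log2 change of 0.50 ± 0.16 and also missed it (adjusted p = 0.182). Cps1, the entry enzyme of the urea cycle, had a log2 change of 0.22 ± 0.20.

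Id1 and Id3, of the Id genes that encode inhibitors of helix-loop-helix factors and are induced by bone morphogenetic proteins (BMPs), rose from mean levels below the wt range. Id1 (ENSMUSG00000042745, chr2:152736251-152737410) stood at 3.45, 3.99, 3.57 and 2.79 CPM at 2 h and at 10.2, 9.19, 6.31, 4.97 and 8.21 CPM at 4 h, while the wt livers ran from 4.82 to 10.0 CPM. Every 2 h liver was below every 4 h liver and below every wt liver, and Id1 rose by 1.17 ± 0.21 (adjusted p = 0.0122). Id3 stood at 17.7, 14.5, 13.6 and 12.5 CPM at 2 h and at 49.7, 27.5, 36.3, 24.1 and 31.5 CPM at 4 h, also without overlap, and rose by 1.21 ± 0.24 (adjusted p = 0.0256). The Id3 call was lost without tg 2 h replicates 2, 3 or 5 or tg 4 h replicates 1 or 5, at adjusted p up to 0.0935. Of 26 measured BMP and iron genes Id1 and Id3 were the called ones, with a list median of 0.08. Id2 (0.87 ± 0.24, adjusted p = 0.102), Smad6 (0.48 ± 0.13, adjusted p = 0.097) and Smad7 (0.47 ± 0.23, adjusted p = 0.415), the last pair BMP feedback inhibitors, did not pass.

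Gata4, a transcription factor of the liver endothelium, stood at 8.50, 7.77, 8.09 and 8.4 CPM at 2 h and at 12.7, 11.6, 15.5, 10.3 and 11.4 CPM at 4 h. It rose by 0.59 ± 0.12 without overlap (adjusted p = 0.0225), and its call was lost without tg 2 h replicate 2, tg 2 h replicate 3 or tg 4 h replicate 1 (adjusted p up to 0.0892). Scaling by library totals and a fit to the tg libraries alone lost it as well. Of 17 sinusoidal endothelial markers Gata4 was the one called and 10 were above 0, with none at 0 CPM in any library. Their sum was 352 to 426 CPM at 2 h and 364 to 454 CPM at 4 h, and their median log2 change was 0.07 (-0.012 by library totals). Of 13 stellate cell markers 11 were above 0, with a median of 0.23 and none called or at 0. Their sum was 276 to 458 CPM at 2 h and 325 to 492 CPM at 4 h. The part of either marker list in the Id and Gata4 rises was not tested.

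The clock list had 2 calls among 18 measured genes, at both ends of its range. Arntl, which encodes the activator BMAL1, stood at 0.288, 0.850, 0.411 and 1.46 CPM at 2 h and at 3.24, 2.16, 3.67, 1.93 and 2.32 CPM at 4 h, while no wt liver was above 1.38 CPM. All 4 h livers were above all 2 h livers, and Arntl rose by 1.83 ± 0.36 (adjusted p = 0.0225), the largest called rise. Per3, a repressor of BMAL1, stood at 22.3, 34.5, 32.1 and 13.5 CPM at 2 h and at 12.3, 11.1, 13.6, 11.5 and 7.75 CPM at 4 h. The groups of Per3 overlapped, since the lowest 2 h liver was about level with the highest 4 h liver, and Per3 fell by 1.19 ± 0.27 (adjusted p = 0.0452). Arntl lost its call without tg 2 h replicate 3, tg 4 h replicate 1 or tg 4 h replicate 5, with adjusted p-values of at most 0.0932, and in a fit to the tg libraries alone. The call of Per3 was lost in all of the 9 fits other than those without tg 2 h replicate 5 and tg 4 h replicate 3 (adjusted p up to 0.169), and also with no filter on low counts, with limma-voom and in a fit to the tg libraries alone.

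The Per3 promoter is shown because it holds the D-box, the site of the clock output factors DBP, TEF and HLF, in 2 copies (RefSeq, GRCm38.p6, minus strand, chr4:151044616-151044915). Capitals mark TTATGTAA, at 205 and 158 bases before the start, a motif that was added to the search after promoters were looked at. Its part in the Per3 fall was not tested.
Per3: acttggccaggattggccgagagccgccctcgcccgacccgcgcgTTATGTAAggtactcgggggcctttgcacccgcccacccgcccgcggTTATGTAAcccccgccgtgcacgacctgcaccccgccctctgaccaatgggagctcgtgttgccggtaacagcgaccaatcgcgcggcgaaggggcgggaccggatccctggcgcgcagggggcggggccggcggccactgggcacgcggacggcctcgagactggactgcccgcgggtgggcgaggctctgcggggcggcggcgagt
Dbp itself had a log2 change of -0.69 ± 0.19 (adjusted p = 0.0862). Nfil3, a repressor at D-boxes, stood at 0.92 ± 0.35 (adjusted p = 0.265). Values for the first repressors of the loop were -0.28 ± 0.21 for Per1, -0.57 ± 0.17 for Per2 and -0.09 ± 0.37 for Nr1d1, and none of them was called. In wt livers, collected at the same ZT, Per3 had a log2 change of -0.58 and Arntl one of 0.30, and no clock gene was called.

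**Figure D3:**
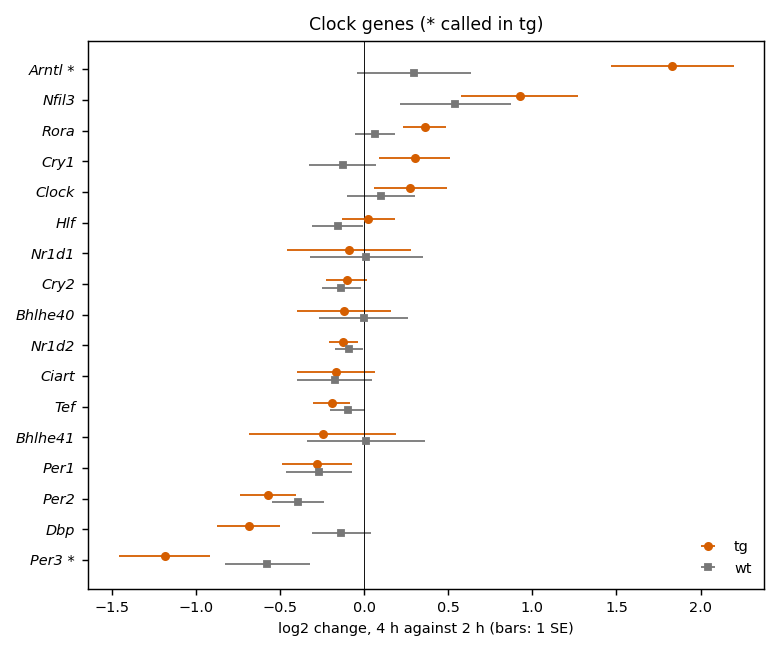
Log2 change from 2 h to 4 h (points, with 1 SE) of 17 of the 18 measured clock genes in tg (orange) and wt (grey) livers, ordered by the tg value, with a star for genes called in tg. Arntl at 1.83 and Per3 at -1.19 form the ends of the tg values.

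Searches for 8 short motifs on both strands of the 300 base promoters found 97 of the 114 called genes and 9864 fitted genes in the RefSeq table. GGCGCC was in 32.0% of 25 risen, 20.8% of 72 fallen and 21% of all promoters. The cAMP response element half-site TGACGT was in 16.0%, 2.78% and 11.7%, and the TATA box TATAAA in 16.0%, 2.78% and 7.31%. The E-box CACGTG was in 4.0%, 9.72% and 10.1%, AGAACA in 12.0%, 15.3% and 12.6%, and the ROR and REV-ERB half-site AGGTCA in 8.0%, 12.5% and 12.5%. The TCF site CTTTGAT was in 4.0%, 2.78% and 2.48%, and the D-box in 0, 1.39% and 0.527%. That 1.39% is the Per3 promoter alone, after which the D-box was added. These are matches of letters, described without a test.

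Other called genes on the lists were few. Nr1i2, the xenobiotic receptor PXR, ran from 66.7 to 79.0 CPM at 2 h and from 93.3 to 125 CPM at 4 h, and rose by 0.53 ± 0.13 (adjusted p = 0.047). Although its groups did not overlap, each of the 9 fits without a tg library lost the call, at adjusted p up to 0.169. Library totals, limma-voom, dispersions without robust estimation and the block for the replicate number lost it too. Spred2, an inhibitor of Ras signalling in the EGF receptor list, ran from 6.33 to 9.2 CPM and from 9.34 to 17.5 CPM. It rose by 0.81 ± 0.19 (adjusted p = 0.0397). Among the fits without a tg library, only that without tg 4 h replicate 3 kept the call (adjusted p up to 0.107 otherwise). The call was also lost by library totals, by limma-voom, on the tg libraries alone and with the blocks for the replicate number and the title number. The 18 hepatocyte transcription factors held 1 called rise, that of a gene already named above, with 7 at an unadjusted p under 0.05 (12.1% of all genes). Their median log2 change was 0.06 (-0.025 by library totals, and -0.008 to 0.131 without 1 tg library). Of the 51 lists 39 had no member called by edgeR with all libraries. DESeq2 called 9 genes on 9 of these 39 lists, namely Cdkn1a, Sds, Insig2, Acot1, Plin5, Pnpla2, Sox9, Klf13 and Alas1. Plin5, a lipid droplet protein singled out after its values were seen, had a log2 change of 1.39 ± 0.32 and narrowly missed the threshold (adjusted p = 0.0514). It was called under most of the other scalings, filters and tools (adjusted p = 0.00075 by DESeq2 and 0.048 by limma-voom), but without a tg library only where that was tg 4 h replicate 3 (adjusted p = 0.0327). Among the 39, the 26 measured glucocorticoid receptor targets had 20 above 0, a median of 0.35 and 3 at an unadjusted p under 0.05 (12.1% of all genes), with Tat, a classic target, at 0.24 ± 0.30. The 19 immediate early genes had a median of 0.33, with Fos at 0.66 ± 0.54, and the 17 p53 targets one of 0.34. Without 1 tg library the medians of these 3 lists ran from 0.24 to 0.48, from 0.22 to 0.47 and from 0.18 to 0.48. The 13 genes of SREBP lipogenesis had a median of -0.24 (-0.50 to -0.08 without 1 tg library), with Fasn, the fatty acid synthase, at -0.53 ± 0.44. Gluconeogenesis genes had a median of 0.05 (-0.025 by library totals), with Pck1 at 0.09 ± 0.19 and G6pc at 0.01 ± 0.41. Alas1, the first enzyme of heme synthesis, stood at 757, 436, 948 and 682 CPM at 2 h and at 470.0, 345, 146, 344 and 346 CPM at 4 h, with overlap of 1 liver, and its log2 change of -1.10 ± 0.32 was not called by edgeR (adjusted p = 0.129) but was by DESeq2 (adjusted p = 0.0186).

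**Figure D4:**
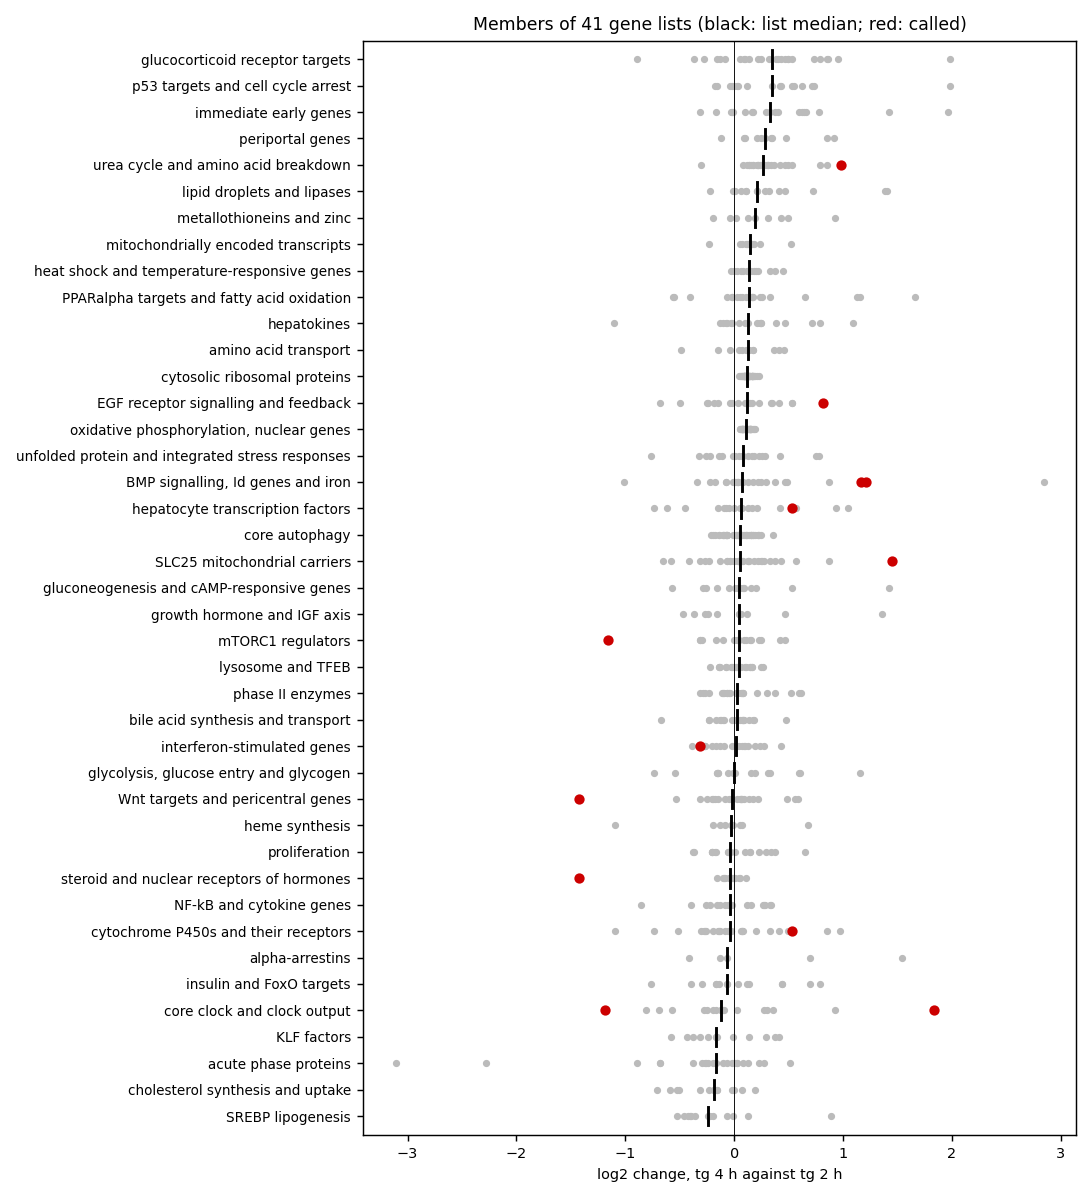
Log2 change from 2 h to 4 h in tg livers of the measured members of 41 gene lists other than cell markers, with the list median as a black bar and called genes in red. Medians run from -0.24 for SREBP lipogenesis to 0.35 for glucocorticoid receptor targets (-0.50 to -0.08 and 0.24 to 0.48 without 1 tg library), and called genes lie far from their list's median in most lists that hold one.

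The same durations in wt livers gave no called gene of 12493 by edgeR, 747 (5.98%) at an unadjusted p under 0.05 and 1 call by DESeq2, while the tg contrast had 1513 (12.1%) at that level. The difference between the tg and wt changes was tested as an interaction. It too gave no call by edgeR, with 723 (5.79%) at an unadjusted p under 0.05 and 6 calls by DESeq2, so no gene was shown by edgeR to differ between genotypes in its change. Of the 114 genes called in tg, 28 of the 33 risen and 72 of the 81 fallen had an unadjusted p under 0.05 for the interaction, a count that the choice of these genes favours. Their wt changes were small, with medians of 0.13 for the risen and -0.09 for the fallen genes, and had the sign of the tg change in 27 of 33 (81.8%) and 62 of 81 (76.5%), against 59.5% of all fitted genes. The smallest interaction p-values among called genes were those of Osbpl11 (1.01, unadjusted p = 5.96e-05), Ifnar1 (-0.49, unadjusted p = 6.06e-05) and Lgr5 (-1.24, unadjusted p = 0.000108), all at an adjusted p of 0.367.

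**Figure D5:**
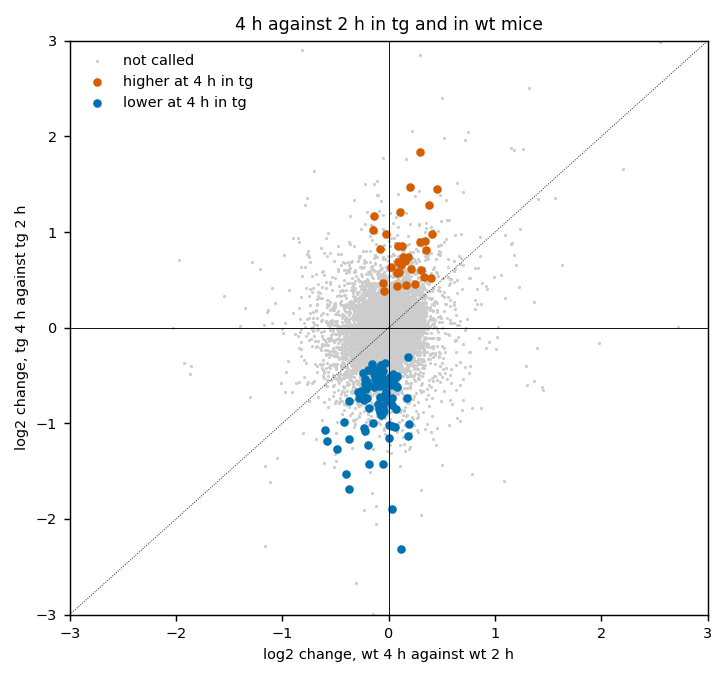
Log2 change from 2 h to 4 h in tg (vertical) against wt livers (horizontal) for all fitted genes, with called rises in orange, called falls in blue and equal change as a dotted line, leaving 8 genes outside the axes of -3 to 3. The called genes spread along the vertical axis, between -2.31 and 1.83, and stay between -0.60 and 0.45 on the horizontal one.

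Called genes covered longer stretches of the genome than fitted genes as a whole. Their median span in the GENCODE M21 annotation was 57.3 kb for the risen and 48.4 kb for the fallen genes, against 24.5 kb for all fitted genes, and 27.3% and 32.1% were longer than 100 kb, against 13.2% of all. The longest annotated transcript had a median of 3.25 kb, 5.11 kb and 3.40 kb in the 3 sets. Median levels were 20.6, 14.6 and 13.3 CPM, so the fallen genes were close to the fitted genes in level. These values are a description of the called genes, with no test.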

How the data were processed

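Gene counts were deposited by the authors as whole numbers in a single table, and their own tables of tg against wt comparisons were not used. Per the submitters' processing notes STAR, Salmon 1.4.0, DESeq2 1.30.0 and build GRCm38.p6 were used, and how the counts were made is not stated there. Genes without a value in any 4 h library (257, with a mean 2 h count of at most 5.11) were left out. In R 4.3.3, edgeR 4.0.16 filtered genes (minimum count 10, minimum total 15), scaled libraries by TMM and fitted 1 mean per group to all 19 libraries with robust quasi-likelihood dispersions (biological coefficient of variation 0.183, 15 residual degrees of freedom), and p-values were adjusted by Benjamini-Hochberg over 12493 genes at 0.05. CPM use the scaled totals, ± after a log2 change is the SE, and ± after a CPM is the SD. The SE was worked back from the test, as the size of the log2 change over the square root of the quasi-likelihood F statistic. Whether mice of a group were litter mates is not given, so p-values measure the spread between these samples. The tg libraries did not agree within sampling noise, the chi-square over its degrees of freedom being 20.1 to 147 in 36 pairs.

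Members and gene lists were chosen with earlier results of these data known. Named genes were drawn from the 20 largest rises and falls among called genes at 1 CPM or more on average over the tg libraries. Not all of these largest changes are named. Called list members and the first 3 members of lists without calls were further sources. Others were picked after their values were seen (Tyk2, Sike1, Kalrn, Ptpn3, Ttc7, Olfml1, Dglucy, Rubcn, Plekhm1, Zfyve26 and the uncalled list members that follow a called gene). Symbols and positions came from GENCODE M21 and promoters from RefSeq. The test was also run on simulated counts, drawn from the fitted dispersions with no outlying library. That run therefore says nothing about how the calls depend on single livers. Alternatives were other scalings, filters and blocks, DESeq2 1.42.0, limma 3.58.1 with voom, fits of 2 groups and fits without each library. Plots used matplotlib 3.10.9. Some genes counted among the calls and lists are not reported here by name.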

Additional observations from a re-analysis of the deposited data

Results flagged for a closer look

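A total of 124 sets of values were examined (named genes on the log scale, total counts and mitochondrial share, each within tg 2 h and tg 4 h). In 7 of them a library lay far from the others of its group, which is close to the 1 in 20 that chance flags. The sets come from the same libraries and are not independent. Cdkn1a and Alas1, which edgeR did not call, were examined because their values are given above. Replicate 3 of tg 4 h was the library in 4 of the 7. It stood at 8.13 CPM for Cdkn1a against 47.2 to 78.8 CPM in the other 4 h livers, at 146 CPM for Alas1 against 344 to 470 CPM, at 5.71 CPM for Eepd1, a nuclease-like protein, against 9.78 to 11.3 CPM, and at 6.35 CPM for Ankrd44, a phosphatase subunit, against 8.35 to 9.18 CPM. Kalrn stood at 24.9 CPM in tg 4 h replicate 2 against 14.1 to 16.5 CPM in the others. Slc25a34 stood at 2.42 CPM in tg 2 h replicate 3 against 3.91 to 4.27 CPM. Thnsl1 stood at 1.4 CPM in tg 4 h replicate 5 against 1.96 to 2.21 CPM.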

How the results depend on the processing

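Scaling by library totals gave 195 called genes (16 higher, 179 lower), with a median log2 change over all genes of -0.07. DESeq2 gave 288 (185 lower, the others higher), with 1 call in wt, a lower one, and 6 for the interaction (3 higher, 3 lower). Leaving out 1 of the 19 libraries gave 20 to 164 calls, 5 to 53 higher and 15 to 111 lower, with 0 to 1 calls in wt and 0 to 3 for the interaction, the last both from the fit without wt 4 h replicate 1. The cause was not tested in these cases. Other alternatives gave 78 to 134 calls, and 38 called genes kept their call in all of the settings that leave out no library. The log2 change of Ulk1 was -0.036 by library totals. Those of Ppara and Tfeb ran from -0.012 to 0.32 and from -0.008 to 0.16 without a library. The difference in total counts ran from -291000 to 1450000 and that in mitochondrial share from -0.43 to 1.3 percentage points.

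The replicate block, with the number 1 to 5 in the sample names, gave 78 calls (27 higher, 51 lower). The deviations of same-numbered tg libraries correlated at 0.0159, 0.125, -0.1 and 0.18, and those of differently numbered ones at -0.277 to 0.315. With so few pairs, whether the numbers pair the samples cannot be decided from these values. At these depths and with 4 and 5 livers, a gene not called may still differ.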
